A study of Mus musculus with 10 samples.

Results

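The 44 genes described here are the Wnt ligands, their receptors and coreceptors, the secreted antagonists and the Axin and TCF/LEF genes of mouse cells at several stages of reprogramming. They were chosen by symbol among the 18901 genes of the deposited expression table: 19 Wnt ligands, 10 Frizzled receptors, the 2 coreceptors *Lrp5* and *Lrp6*, 4 secreted Frizzled-related proteins (Sfrp), 3 Dickkopf proteins (Dkk), the 2 Axin scaffolds and the 4 TCF/LEF transcription factors.

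The study asked whether adding recombinant Netrin-1 (rNetrin-1), a secreted guidance cue, during reprogramming alters the resulting induced pluripotent stem (iPS) cells. Polyadenylated RNA of 5 mouse lines was sequenced, with 2 libraries a line. All lines carried the Oct4-GFP reporter and came from a cross of mf1 and 129 mice. The first line was Oct4-GFP mouse embryonic fibroblasts (MEF), the starting cell, at passages 2 and 4, without reprogramming factors and grown in DMEM with 10% FCS. The other 4 lines had received Oct4, Sox2, Klf4 and c-Myc from retroviruses and were sampled at passages 5 and 25. They were a 'control' iPS line made without rNetrin-1, 'rNetrin-1-derived' iPS clones 1 and 2, and a pre-iPS line, which is partially reprogrammed, with the Oct4 reporter off and the viral factors still expressed. The labels give KSR+LIF medium for the iPS cells and no separate medium for the pre-iPS cells. The methods name KSR with or without 2i, a pair of inhibitors that includes one of the Wnt pathway kinase GSK3, and growth on gelatin or on irradiated MEF, without saying which applied to these libraries. Each reprogrammed line is 1 clone and its passages are not separate derivations, so the p-values below compare these lines and not conditions at large.

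Wnt proteins are lipid-modified secreted signals that bind a Frizzled receptor together with *Lrp5* or *Lrp6*. Binding stops a complex built on Axin from destroying beta-catenin, which then joins the TCF/LEF factors on DNA. Sfrp proteins bind Wnts outside the cell, *Dkk1* and *Dkk2* bind the Lrp coreceptors, and *Axin2* and *Lef1* are themselves familiar targets of the pathway. In mouse pluripotent cells the pathway is known to favour self-renewal, in part by relieving repression by *Tcf7l1*, while many fibroblasts make *Wnt5a* and several Dkk and Sfrp proteins.

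Expression is given as the deposited value, a read count brought to a common library size, in which 1 read was worth 0.888 to 1.18. The libraries held 38110410 to 52946856 reads on genes. Marker lists followed the line labels. The summed value of 8 pluripotency genes was 35432 to 83400 in the iPS libraries, 19245 to 20375 in pre-iPS and 186 to 206 in MEF. In pre-iPS *Dppa3* stood under 10 in both libraries, and in MEF *Dppa3* and *Fgf4* did. The sum of 9 fibroblast genes was 2860274 to 3003823 in MEF, 19272 to 33859 in the iPS libraries and 20169 to 21466 in pre-iPS, and none of them was at 0 in any line. The 2 MEF libraries were closer to each other than those of any other line (a chi-square per degree of freedom of 2.76 over genes, against 36.3 to 50.9), yet further apart than sampling noise.

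**Figure D1:**
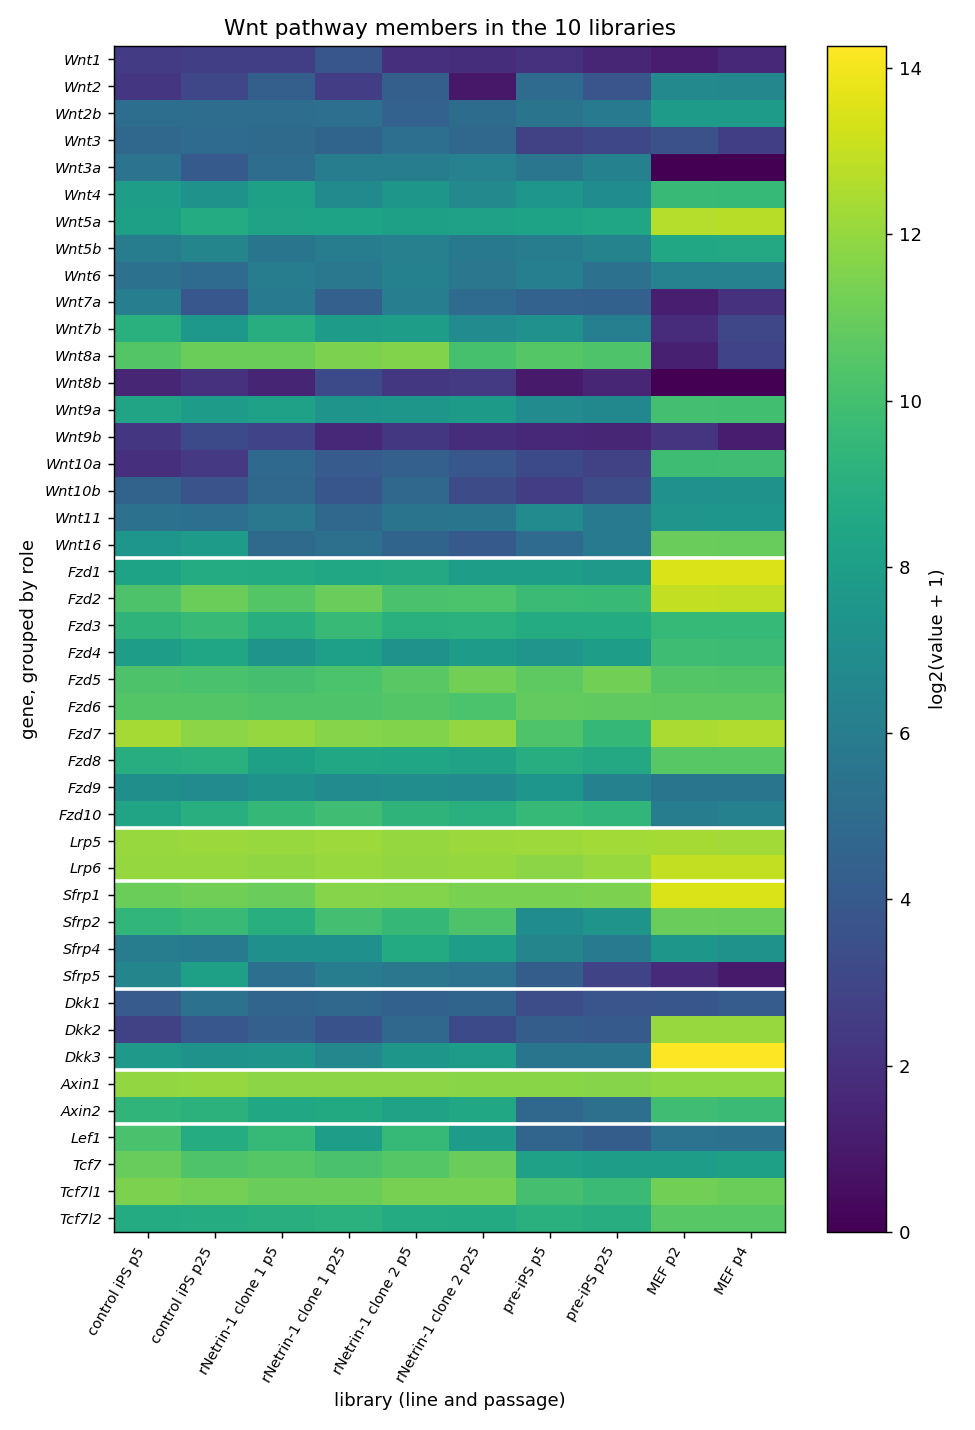
Each row is 1 of the 44 genes, grouped by role, and each column 1 of the 10 libraries; p is the passage, and the colour is log2(value + 1). The MEF columns differ from the other 8, with *Dkk3* at 19599 and 19697 and *Wnt8a* under 10, and *Axin2* is darkest in the 2 pre-iPS libraries, at 26.5 and 37.4.

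The ligand pool of the reprogrammed lines was dominated by a single gene. Per kilobase of exon, a scale on which genes can be compared with each other, *Wnt8a* made up 75.3% of all Wnt ligand signal in the iPS lines (63.4% to 84.3% over the 6 libraries) and 74.2% in pre-iPS. Its value was 1381 and 2104 in control iPS cells, 2161 and 2749 in clone 1, 3056 and 1093 in clone 2, 1457 and 1317 in pre-iPS, and 1.37 and 6.27 in MEF, the last from 1 and 6 reads. Every reprogrammed library thus stood far above MEF, and the passages of clone 2 were the furthest apart. Next in the iPS lines came *Wnt9a* with 4.99%, *Wnt7b* with 4.08% and *Wnt4* with 2.93% of the ligand signal.

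MEF had another mixture. *Wnt5a*, the classical non-canonical ligand, made up 33.3% of ligand signal per kilobase, *Wnt16* 18.2%, *Wnt10a* 15.0% and *Wnt9a* 11.7%. The summed ligand level per kilobase was 2552 ± 17.3 (SD, n = 2) in MEF, 1558 ± 433 (SD, n = 6) in the iPS lines and 1071 ± 84.8 (SD, n = 2) in pre-iPS. The sums of MEF and iPS did not overlap, whereas those of pre-iPS lay within the iPS range of 899 to 2103.

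Among receptors, *Fzd7* held the largest share per kilobase in the iPS lines (38.1%, range 31.2% to 48.2%), ahead of *Fzd2* (18.7%) and *Fzd6* (12.5%). In pre-iPS the order was different, with *Fzd6* at 23.6%, *Fzd5* at 18.9%, *Fzd2* at 14.1% and *Fzd7* at 13.9%. *Fzd7* (10.7% and 17.1%) was not separated from *Fzd5* (15.2% and 22.5%) or *Fzd2* (13.9% and 14.3%) in the 2 libraries. MEF carried mostly *Fzd1* (37.9%) and *Fzd2* (29.7%), and its summed Frizzled level per kilobase was 7176 ± 20.3 (SD, n = 2) against 2230 ± 144 (SD, n = 6) in the iPS lines. *Lrp5* and *Lrp6*, which every canonical signal needs, summed to 750.0 per kilobase in the iPS lines, 779 in pre-iPS and 1092 in MEF.

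**Figure D2:**
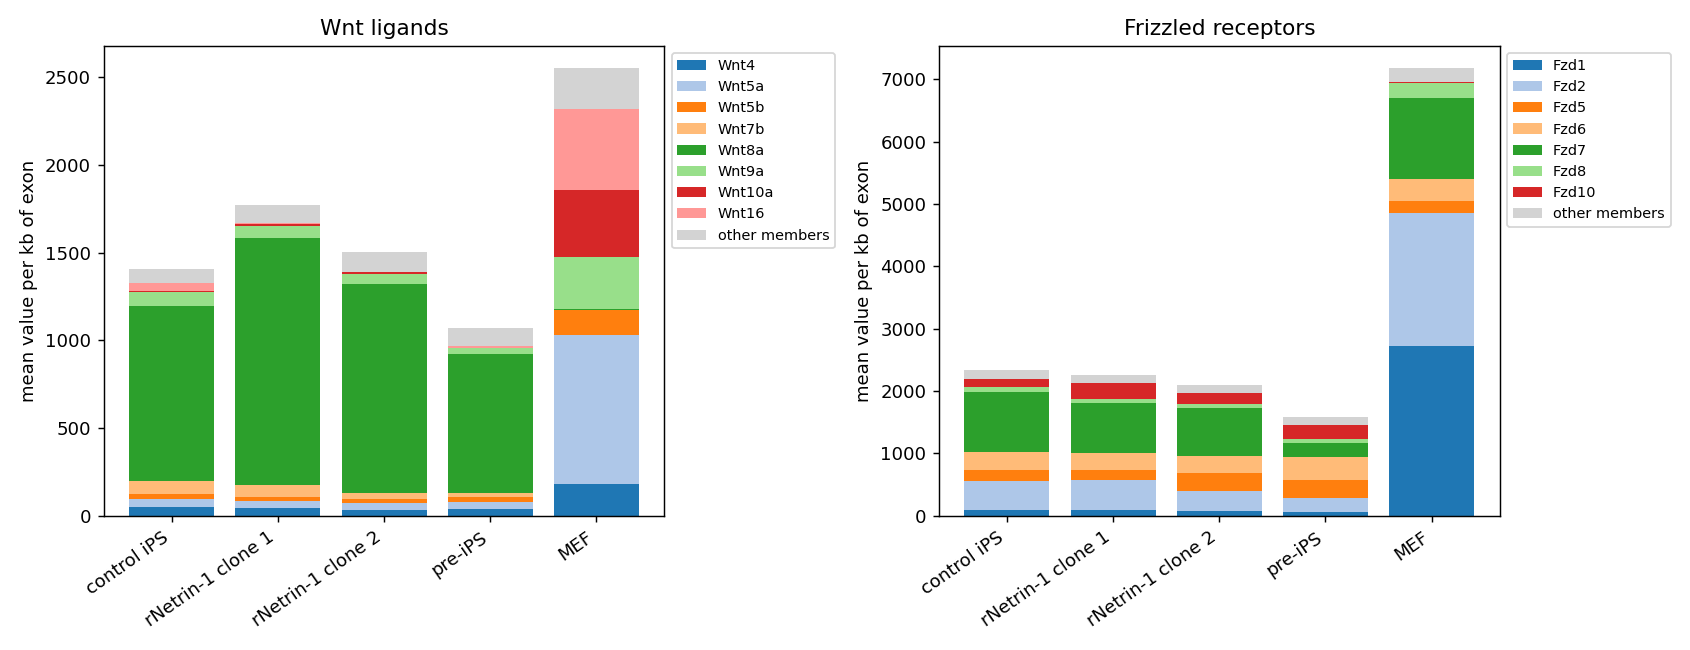
Stacked bars give the mean value per kilobase of exon (2 libraries a line) of each Wnt ligand (left) and Frizzled receptor (right) that reached 4% of its family in a line; grey sums the others. *Wnt8a* fills 70.3% to 79.2% of the ligand bar in the 3 iPS lines, and *Wnt5a*, *Wnt16*, *Wnt10a* and *Wnt9a* most of the MEF bar.

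The ligands *Wnt1*, *Wnt8b* and *Wnt9b* were too low to test. *Wnt1* gave 1 to 13 reads a library, *Wnt8b* 0 to 8 and *Wnt9b* 1 to 8, in all lines. The other 41 genes passed a minimum value of 10 in at least 2 libraries. Differences between lines were tested with limma on log2(value + 1) over the 17075 genes that passed, and a gene was called at an adjusted p under 0.05 with a log2 difference of at least 1.

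Pre-iPS cells were set against the 3 iPS lines to compare partial with full reprogramming. In pre-iPS *Axin2* and the factors *Lef1*, *Tcf7* and *Tcf7l1* were called lower, as were *Fzd7*, 4 secreted antagonists and the ligands *Wnt3* and *Wnt9a*. Of the 41 genes 11 were called lower and 1 higher, where 11.6% of all genes tested were called lower and 4.71% higher. The median log2 difference of the 41 genes was -0.24, beside 0.00 for all genes. How many of all genes keep both pre-iPS libraries outside the iPS range was not counted, so the ranges below describe these genes only. In bulk RNA, fewer cells expressing a gene and less RNA of it per cell cannot be told apart.

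*Axin2*, the inducible Axin that acts as feedback inhibitor, had values of 26.5 and 37.4 in pre-iPS. The lowest iPS library, clone 2 at passage 5, stood at 295 and the highest, control at passage 5, at 638. Pre-iPS therefore lay far under every iPS library, with a log2 difference of -3.72 ± 0.17 (SE; adjusted p = 3.08e-06). *Axin1*, the constitutive Axin, was 3439 and 3283 in pre-iPS and 3460 to 4098 in the iPS libraries, a log2 difference of -0.13 that was not called (adjusted p = 0.0875). *Axin2* accounted for 7.59% of the Axin signal per kilobase in iPS cells and 0.66% in pre-iPS. MEF had 935 and 845 of *Axin2*, above all other lines.

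All TCF/LEF factors but *Tcf7l2* were lower in pre-iPS. *Lef1*, the factor most often linked to activation, was 24.5 and 17.3 in pre-iPS and between 237 and 1154 in the iPS libraries, with a log2 difference of -4.58 ± 0.54 (SE; adjusted p = 0.000359). *Tcf7*, another activating member, was 289 and 247 against 1172 to 2048 (log2 difference -2.53 ± 0.19 SE, adjusted p = 3.31e-05). *Tcf7l1*, the repressor known as Tcf3 in the embryonic stem cell field, was 1045 and 852 against 2085 to 2772 (log2 difference -1.37 ± 0.09 SE, adjusted p = 1.77e-05). None of these groups overlapped, a separation whose share over all genes was not counted. *Tcf7l2* was 522 and 473 in pre-iPS within an iPS range of 424 to 548. The summed TCF/LEF level per kilobase was 403 ± 50.6 (SD, n = 2) in pre-iPS and 1347 ± 209 (SD, n = 6) in iPS cells.

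At the membrane, *Fzd7* was 1270 and 735 in pre-iPS and 3065 to 5111 in the iPS libraries (log2 difference -1.98 ± 0.22 SE, adjusted p = 0.00026). No other Frizzled gene was called. *Fzd1*, *Fzd2* and *Fzd3* were under every iPS library with log2 differences of -0.64, -0.87 and -0.51, and *Fzd6* was above every one with 0.42, all at an adjusted p under 0.05 but short of the required size. *Lrp5* and *Lrp6* gave log2 differences of 0.13 and -0.07.

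The antagonists called lower came from both families. *Sfrp2* was 122 and 167 in pre-iPS against 504 to 1221 in iPS libraries (log2 difference -2.46 ± 0.28 SE, adjusted p = 0.000287). *Sfrp5* was 17.3 and 6.72 against 35.5 to 271 (log2 difference -2.59 ± 0.51 SE, adjusted p = 0.00441). *Dkk3*, a Dickkopf relative that does not act as a typical Lrp ligand, was 45.9 and 45.1 against 96.5 to 223 (log2 difference -1.84 ± 0.21 SE, adjusted p = 0.000263). *Sfrp1*, the most abundant of the family, was 2710 and 2820 in pre-iPS and 2094 to 3206 in iPS cells, so the groups overlapped. *Dkk1*, the best known Lrp inhibitor, was 9.18 and 12.5 against 16.4 to 39.6 (log2 difference -1.11, adjusted p = 0.0339). The *Dkk1* call was lost in 8 of the 10 fits that left out 1 library, among them those without either pre-iPS library (log2 difference -0.91 and -1.31), with DESeq2 and under quantile normalization (-0.47). *Sfrp5* was not called without the pre-iPS library of passage 25 (log2 difference -1.96).

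Ligands differed less. *Wnt3* was 6.12 and 7.68 in pre-iPS against 23.6 to 35.7 (log2 difference -1.90 ± 0.31 SE, adjusted p = 0.00182), and *Wnt9a* was 118 and 99.9 against 168 to 318 (-1.07 ± 0.22 SE, adjusted p = 0.00562). *Wnt9a* fell short of the required size without the passage 25 library of pre-iPS (-0.95), without the passage 5 library of the control (-0.99) or of clone 1 (-0.94), and under quantile normalization (-0.86). *Wnt11*, a ligand of the non-canonical branch, was the single gene called higher, with 118 and 59.5 against 25.7 to 51.5 (1.09 ± 0.33 SE, adjusted p = 0.0288), and without the pre-iPS library of passage 5 its log2 difference was 0.59 and not called. Leaving out the passage 25 library of the control (1.06) or of clone 1 (0.92) ended that call too. *Wnt7b* was 149 and 69.1 against 118 to 522, a log2 difference of -1.37 (adjusted p = 0.075), which was called with passage as a block (adjusted p = 0.000323). The abundant *Wnt8a* was not called (log2 difference -0.50).

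**Figure D3:**
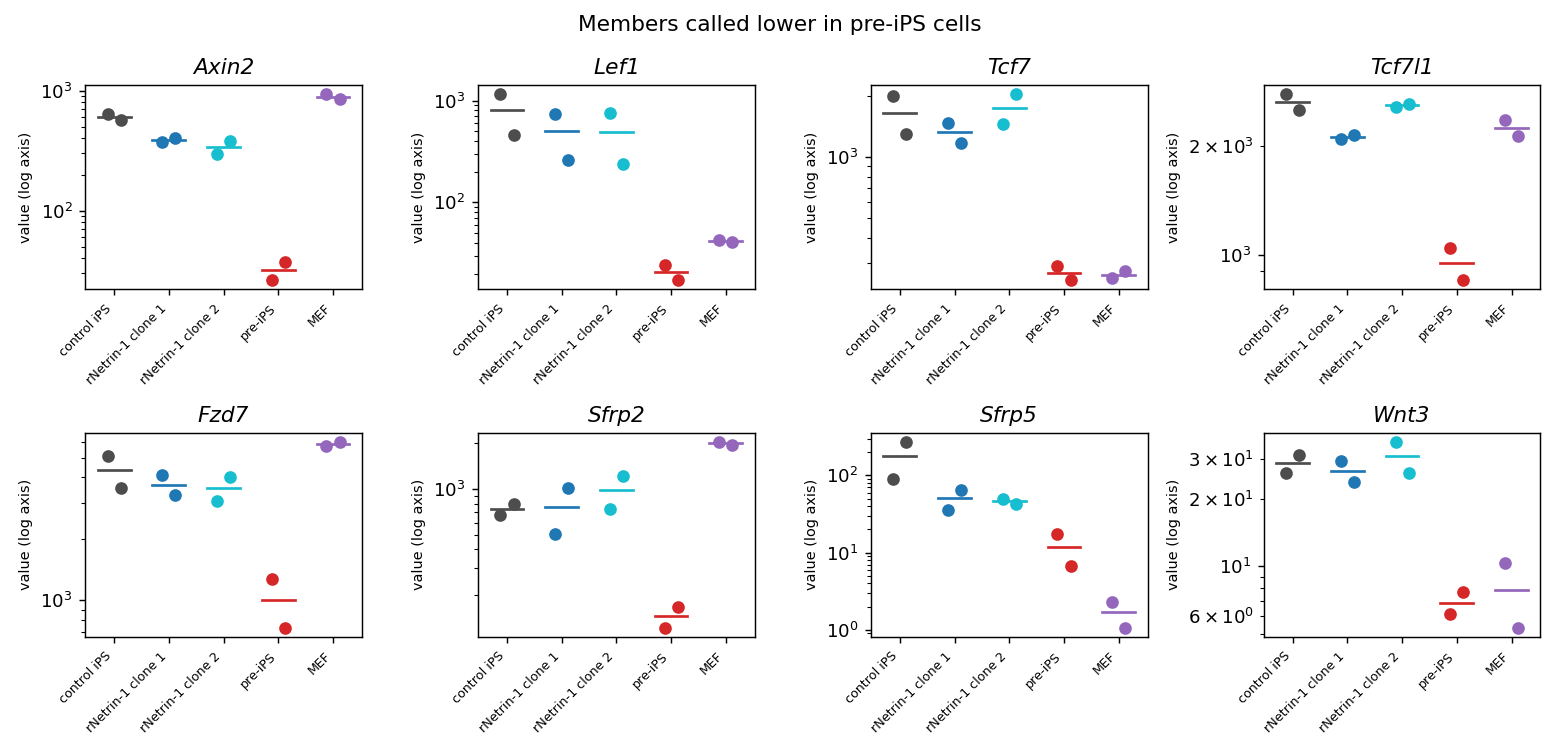
Points are the 2 libraries of each line (earlier passage left, later right), short lines their mean, and the vertical axes the deposited value on log scales. The 8 genes shown were taken from those called lower in pre-iPS, and in all of them both pre-iPS points lie under every iPS point. MEF is as low as pre-iPS for *Tcf7* (252 and 272) but high for *Axin2* (935 and 845).

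The promoters of genes that were low together in pre-iPS are shown because TCF/LEF factors bind short DNA motifs. The RefSeq windows (GRCm38.p6) run from 250 bases before to 50 after a transcription start, and 10 of the 11 genes called lower had at least 1 window, 14 in all. The letters searched, on both strands, were CTTTG followed by 2 bases that are each A or T. They occurred in 4 of these 14 windows, in 18.4% of the 38 windows of the 30 listed genes that have one, and in 16.9% of all 32851 windows. Matches are capitalised, written as they read on the gene's strand. *Axin2* is shown as the gene with the smallest adjusted p, without a match in this window. *Lef1*, *Fzd7* and *Dkk1* are shown as 3 of the 4 genes with a match, and the other is *Wnt3*. For *Lef1* the window shown is at an alternative start inside the gene, and the other *Lef1* windows, upstream of it, had no match. The windows shown lie at chr11:108920099-108920398 (plus strand), chr3:131156044-131156343 (plus), chr1:59481897-59482196 (plus) and chr19:30549447-30549746 (minus).
Axin2: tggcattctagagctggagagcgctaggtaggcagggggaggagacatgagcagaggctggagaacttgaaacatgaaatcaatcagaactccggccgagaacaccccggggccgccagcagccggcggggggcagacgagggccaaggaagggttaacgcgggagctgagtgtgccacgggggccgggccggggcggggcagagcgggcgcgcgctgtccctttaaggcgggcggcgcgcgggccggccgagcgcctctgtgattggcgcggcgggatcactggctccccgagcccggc
Lef1: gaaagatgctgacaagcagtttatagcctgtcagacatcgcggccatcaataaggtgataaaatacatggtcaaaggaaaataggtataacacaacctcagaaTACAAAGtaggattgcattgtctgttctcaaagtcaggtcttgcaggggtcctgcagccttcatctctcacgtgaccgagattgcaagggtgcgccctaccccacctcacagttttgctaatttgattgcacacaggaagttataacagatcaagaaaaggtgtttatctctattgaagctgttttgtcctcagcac
Fzd7: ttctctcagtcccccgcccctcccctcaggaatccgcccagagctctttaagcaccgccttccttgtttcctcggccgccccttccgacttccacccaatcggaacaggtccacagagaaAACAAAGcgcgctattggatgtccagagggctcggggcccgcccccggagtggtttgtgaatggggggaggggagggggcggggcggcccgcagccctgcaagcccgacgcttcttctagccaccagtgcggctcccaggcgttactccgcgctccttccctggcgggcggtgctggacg
Dkk1: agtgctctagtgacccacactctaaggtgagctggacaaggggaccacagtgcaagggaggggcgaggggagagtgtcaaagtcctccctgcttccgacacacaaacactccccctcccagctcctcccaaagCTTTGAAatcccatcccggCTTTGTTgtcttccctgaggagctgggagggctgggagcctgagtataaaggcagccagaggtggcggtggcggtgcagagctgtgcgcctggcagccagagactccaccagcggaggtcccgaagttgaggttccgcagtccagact
The first base of the match is 147 bases before the start in *Lef1*, 130 in *Fzd7*, and 117 and 98 in *Dkk1*. These are letters only, and no binding was measured.

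Other genes of the pathway were counted from a list of 64, of which 63 were tested. In pre-iPS 11 were called lower and 5 higher, beside 11.6% and 4.71% of all genes, with a median log2 difference of -0.16. Of 9 genes often used as readouts of the pathway, 5 were lower and 1 higher. The one higher was the adhesion receptor *Cd44* (17195 and 17519 in pre-iPS against 6108 to 11957, log2 difference 1.12). The 3 largest falls were *Rspo1*, an R-spondin that amplifies Wnt signals (6.12 and 4.8 in pre-iPS, 67.4 to 168 in iPS libraries, log2 difference -4.03), the mesoderm gene *T* (2.04 and 1.92 against 15.9 to 29.8, -2.86) and the receptor *Tnfrsf19* (mean 58.3 against 432, -2.83). The 3 largest rises were *Lgr6*, an R-spondin receptor (420.0 and 755 against 90.3 to 150.0, 2.37), *Porcn*, the acyltransferase that lipidates Wnt proteins (9534 and 9836 against 1779 to 6098, 1.74), and the membrane inhibitor *Apcdd1* (1621 and 2018 against 414 to 844, 1.60). *Sp5*, a direct target gene, stood the other way from *Axin2*, with 83.7 and 67.2 in pre-iPS and 16.1 to 58.6 in the iPS libraries (log2 difference 1.14, adjusted p = 0.0854, or 0.0379 with passage as a block). The pluripotency marker sum was lower in pre-iPS too. Of its genes, *Fgf4* (2409 and 2598 in pre-iPS, 1804 to 4920 in iPS libraries) and *Zfp42* (6512 and 6101, 2109 to 15153) lay within the iPS range. The part of these markers in these results was not tested.

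MEF were compared with the iPS lines to set the starting cell against full reprogramming. Of the 41 genes tested 20 were called higher in MEF and 10 lower, beside 21.6% and 26.6% of all genes. The median log2 difference was 0.94 in the 41 genes and -0.09 in all genes. With scaling to 4 housekeeping genes the median of all genes moved to 0.30, and no gene named below as called changed direction under it or under quantile normalization. MEF and pre-iPS gave 23 higher and 7 lower, beside 20.9% and 22.4% of all genes; both comparisons share the MEF libraries.

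Ligands split sharply. Called higher in MEF than in iPS cells were 10 of the 16 ligands tested. *Wnt5a* was 6580 and 6719 in MEF and 270.0 to 433 in iPS libraries (log2 difference 4.43 ± 0.16 SE, adjusted p = 5.66e-08). *Wnt10a* was 927 and 958 against 2.9 to 28.4 (6.29 ± 0.30 SE, adjusted p = 2.28e-07), and *Wnt16* was 2042 and 2007 against 15.2 to 236 (5.29 ± 0.28 SE, adjusted p = 3.93e-07). The others were *Wnt2*, *Wnt2b*, *Wnt4*, *Wnt5b*, *Wnt9a*, *Wnt10b* and *Wnt11*, with log2 differences of 2.11 to 3.74. Each of these 10 had both MEF libraries above all 6 iPS libraries. The share of all genes that separate in this way was not counted.

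The 5 ligands called lower in MEF were *Wnt3*, *Wnt3a*, *Wnt7a*, *Wnt7b* and *Wnt8a*. *Wnt3a*, a canonical ligand, gave 0 reads in both MEF libraries, and against a floor of 3 reads a library it was at least 14.8-fold higher in iPS cells (15.6 to 79.7) and at least 18.4-fold higher in pre-iPS (47.9 and 75.9). *Wnt8a* had the largest fitted difference, -8.89 ± 0.47 (SE; adjusted p = 3.51e-07). *Wnt7b* was 2.57 and 7.33 in MEF and 118 to 522 in iPS cells (-5.60 ± 0.54 SE, adjusted p = 1.4e-05). *Wnt3* was 10.4 and 5.34 in MEF, the same order as in pre-iPS, and its call was lost under quantile normalization (-0.45). *Wnt6* was the tested ligand called in neither direction (0.64, adjusted p = 0.0598).

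The Frizzled genes *Fzd1*, *Fzd2*, *Fzd4* and *Fzd8* were higher in MEF. *Fzd1* was 11336 and 11488 in MEF and 247 to 439 in iPS libraries (log2 difference 5.00 ± 0.19 SE, adjusted p = 6.95e-08), while the other 3 differed by 1.99 to 2.40. *Fzd9* and *Fzd10* were lower, *Fzd10* with 62.2 and 76.9 against 321 to 932 (-3.02 ± 0.19 SE, adjusted p = 9.7e-07). *Fzd9* lost its call under quantile normalization (-0.69). *Fzd3*, *Fzd5*, *Fzd6* and *Fzd7* were not called, and *Fzd7* was 5704 and 5971 in MEF, so that the low level of this receptor in pre-iPS lay under both other cell states. *Lrp6* was 7812 and 7869 in MEF against 3762 to 4340, a log2 difference of 0.94 (adjusted p = 1.12e-05) that is short of the required size.

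*Dkk2* and *Dkk3* had the largest rises among the 41 genes tested, while the other secreted antagonists rose less, fell or were not called. *Dkk3* was 19599 and 19697 in MEF and 96.5 to 223 in iPS libraries (log2 difference 6.88 ± 0.21 SE, adjusted p = 2.21e-08). *Dkk2*, which can bind *Lrp6*, was 4327 and 4313 against 5.8 to 25.8 (8.32 ± 0.45 SE, adjusted p = 4.19e-07). *Sfrp1* was 11087 and 11301 against 2094 to 3206 (2.14 ± 0.14 SE, adjusted p = 1.22e-06), and *Sfrp2* was 2034 and 1948 against 504 to 1221 (1.33 ± 0.28 SE, adjusted p = 0.00201). *Sfrp5* went the other way, with 2 reads and 1 read in the MEF libraries and 40 to 260 in the iPS libraries. *Dkk1* was low everywhere, with 13.2 and 16.8 in MEF, and was not called.

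Fibroblast markers were present in the iPS libraries at 0.898% of their MEF sum, with single genes between 0.12% and 26.4%. The genes most strongly MEF-biased were of the same order in iPS cells: *Dkk2* at 0.324%, *Dkk3* at 0.873% and *Wnt10a* at 1.51% of the MEF mean. *Wnt5a* stood at 4.68%, *Fzd1* at 3.17%, and *Sfrp1* at 23.1%. The part of residual or feeder fibroblasts in these low iPS values was not tested. Macrophage markers summed to 10284 and 10285 in MEF and 431 to 1268 in the iPS libraries, and their part was not tested.

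Downstream, *Axin2* was higher in MEF (log2 difference 1.06 ± 0.17 SE, adjusted p = 0.000359), near the required size, and came to 0.98 without the MEF library of passage 2 and 0.99 without clone 2 at passage 5, where it was not called. *Lef1* (42.6 and 41.2) and *Tcf7* (252 and 272) were lower, by -3.59 ± 0.54 and -2.56 ± 0.19 (SE; adjusted p = 0.000269 and 2.95e-06). *Tcf7l2* was higher, 1529 and 1517 against 424 to 548 (1.70 ± 0.09 SE, adjusted p = 4.44e-07), and *Tcf7l1* was 2359 and 2128 within the iPS range of 2085 to 2772. *Lef1* and *Tcf7* were thus low in both MEF and pre-iPS, whereas *Axin2* was low in pre-iPS and high in MEF.

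**Figure D4:**
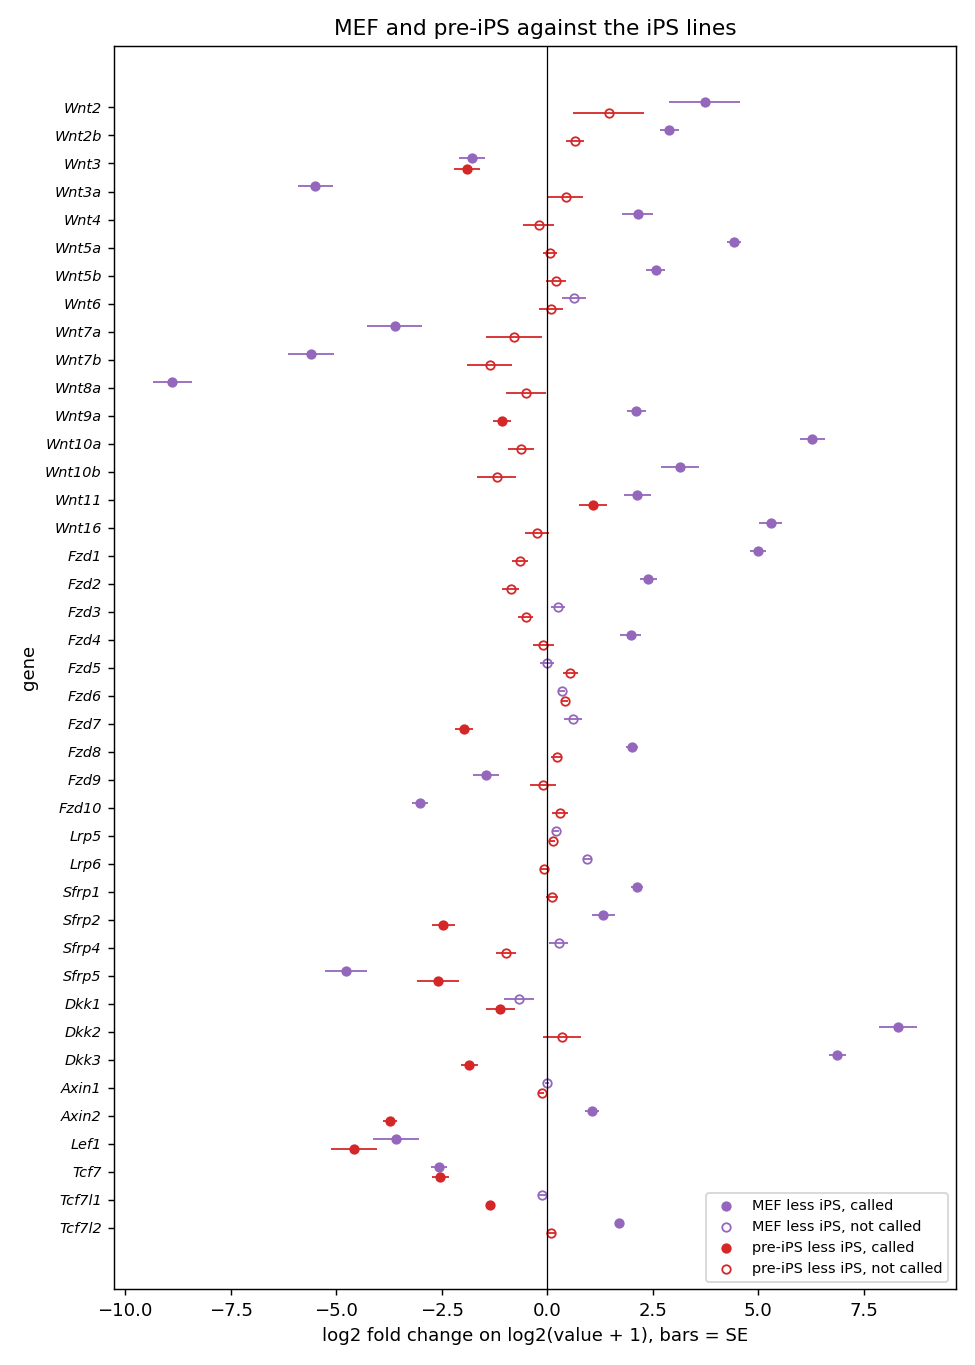
Log2 differences of the 41 tested genes from the mean of the 3 iPS lines, for MEF (purple) and pre-iPS (red); bars are standard errors and filled points passed both limits. The purple points spread from -8.89 (*Wnt8a*) to 8.32 (*Dkk2*), and 11 of the 12 filled red points lie to the left of 0.

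Against pre-iPS, the MEF pattern added *Fzd7* (log2 difference 2.59 ± 0.27 SE), *Tcf7l1* (1.25 ± 0.11 SE), *Sfrp4* (1.25 ± 0.29 SE) and *Lrp6* (1.01 ± 0.11 SE) to the genes higher in MEF. *Axin2* differed by 4.77 ± 0.21 (SE; adjusted p = 2.14e-07). *Wnt2*, *Wnt3*, *Lef1* and *Tcf7* were not called there; *Lef1* was 42.6 and 41.2 in MEF and 24.5 and 17.3 in pre-iPS (0.99, adjusted p = 0.212). In all, 14 genes were higher in MEF than in both other states without a call between pre-iPS and iPS, and 6 (*Wnt3a*, *Wnt7a*, *Wnt7b*, *Wnt8a*, *Fzd9* and *Fzd10*) were lower in the same way. The genes *Wnt9a*, *Sfrp2*, *Dkk3* and *Axin2*, were lowest in pre-iPS and highest in MEF. *Wnt6*, *Fzd3*, *Fzd5*, *Fzd6*, *Lrp5* and *Axin1* were called in none of the 3 comparisons. The share of all genes with each of these patterns was not counted, so the counts cannot be set against it. Quantile normalization ended the calls of *Wnt7a*, *Fzd9*, *Lrp6* and *Sfrp5* between MEF and pre-iPS. So did leaving out the pre-iPS library of passage 5 for *Fzd9* (-0.73), *Lrp6* (0.87) and *Sfrp5* (-1.55), that of passage 25 for *Sfrp4* (0.96), the MEF library of passage 2 for *Wnt7a* (-2.39) and that of passage 4 for *Sfrp5* (-1.84). The call of *Wnt11* (log2 difference 1.06) was lost without any 1 of the control, clone 2 or MEF libraries, without the pre-iPS library of passage 25 (0.57), in a fit of only these lines, and with edgeR.

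Among the other 63 pathway genes 21 were higher and 14 lower in MEF than in iPS cells, beside 21.6% and 26.6% of all genes. Their median log2 difference was 0.53. The 3 largest rises were the R-spondins *Rspo2* and *Rspo3* and their receptor *Lgr5*. *Rspo2* was 3813 and 3985 in MEF against 4.96 to 15.6 (log2 difference 8.49), *Lgr5* 1869 and 1876 against 12.9 to 27.1 (6.46), and *Rspo3* 1470 and 1560 against 11.6 to 23.1 (6.35). *Rspo4* was called lower (mean 1.07 against 23.4), and the receptors *Lgr4* and *Lgr6* were not called (0.32 and 0.26). Lowest against iPS cells were *Dkkl1* (mean 2.25 against 133), *Cdx1* (1 MEF read in the 2 libraries, against a mean value of 36.6) and *T* (the same, against 21.3). Against pre-iPS, 23 were higher and 16 lower, beside 20.9% and 22.4% of all genes. *Rspo2*, *Rspo3* and *Lgr5* were again at the head and *Dkkl1* (-5.80), *Sp5* (-4.32) and the planar polarity cadherin *Celsr1* (-4.20) at the foot.

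The rNetrin-1-derived clones were compared with the control line to ask whether the treatment left a mark on these genes. Few differed: of the 41 genes 2 were higher and 1 lower in the clones, where 0.990% of all genes were called higher and 1.12% lower. The median log2 difference was -0.10, beside -0.01 for all genes. Since there is 1 control line, treatment and clone cannot be told apart.

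*Wnt16* was the gene lower in the clones. It was 179 and 236 in control iPS cells, 29.3 and 37.0 in clone 1, and 22.8 and 15.2 in clone 2, so that the groups were far apart (log2 difference -3.00 ± 0.30 SE, adjusted p = 0.00263). Pre-iPS gave 30.6 and 59.5 and MEF 2042 and 2007, and with 1 control line it cannot be told which side deviates. *Wnt10a* was higher, with 2.9 and 4.18 in the control, 28.4 and 16.4 in clone 1 and 19.8 and 13.4 in clone 2 (2.14 ± 0.32 SE, adjusted p = 0.0111). The control values rest on 3 and 4 reads. *Sfrp4* was 61.9 and 60.5 in the control, 140.0 and 143 in clone 1 and 421 and 257 in clone 2 (3.49-fold on the log2(value + 1) scale, adjusted p = 0.00827). The calls of *Wnt10a* and *Sfrp4* were both lost when either control library was left out, with log2 differences of 1.94 to 2.35 for *Wnt10a* and 1.79 to 1.82 for *Sfrp4*; the call of *Wnt16* was kept. *Wnt10a* also lost its call in a fit of the iPS lines alone. *Wnt10a* and *Wnt16* were both high in MEF, and the fibroblast marker sum was 19272 and 26883 in the control and 22958 to 33859 in the clones. Other marker sums separated the groups, primitive endoderm with 3231 and 3278 in the control against 1497 to 2744, and neural with 6498 and 7773 against 8029 to 13047. No single primitive endoderm marker did, *Dab2*, the largest, being 1727 and 2431 against 972 to 1994. Among the neural markers only *Nes* did (3624 and 3360 against 4176 to 10193), while *Pax6* (682 and 1261 against 502 to 844), *Sox1* and *Tubb3* overlapped. The part of these markers was not tested.

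Other genes separated the groups, in both directions, without being called by limma. Higher in the clones were *Fzd10* (321 and 484 in the control against 521 to 932) and *Wnt6* (40.6 and 31.3 against 49.3 to 75.4). *Axin1* (3932 and 4098 against 3460 to 3593) and *Fzd6* (1418 and 1400 against 1214 to 1387) were lower, as were those that follow. How many of all genes separate in this way was not counted. *Axin2* was 638 and 573 in the control and 295 to 401 in the clones (log2 difference -0.75, adjusted p = 0.0569). *Sfrp5* was 89.0 and 271 against 35.5 to 65.7 (-1.70, adjusted p = 0.138) and was called by DESeq2 (-1.91, adjusted p = 0.019). *Fzd8* was 468 and 522 against 279 to 354 (-0.63, adjusted p = 0.0486, short of the required size). *Lef1* was 1154 in the control against 743 and 754 in the clones at passage 5, and 461 against 259 and 237 at passage 25, above both clones within each passage but overlapping across passages (-0.76, adjusted p = 0.566, or 0.114 with passage as a block). Of the 63 other pathway genes 1 was called, where 0.990% of all genes were called higher and 1.12% lower. This was *Notum*, a secreted enzyme that removes the lipid from Wnt proteins. It was 561 and 544 in the control, 2320.0 and 4091 in clone 1 and 2930.0 and 1503 in clone 2 (2.20 ± 0.29 SE, adjusted p = 0.00715).

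Clones 1 and 2 were compared with each other as lines made the same way. Limma called 0 of the 41 genes, where 0.714% of all genes were called higher and 0.252% lower in clone 2; 5 of the 41 had an unadjusted p under 0.05, edgeR called 0 and DESeq2 1. That gene was *Sfrp4*, with 421 and 257 in clone 2 and 140.0 and 143 in clone 1 (log2 difference 1.21, adjusted p = 0.0873 in limma, and 0.0495 with passage as a block). A p that misses the limit does not show that the clones were alike. Among the other pathway genes *Porcn* was called, 6098 and 4070 in clone 2 against 2711 and 2262 in clone 1 (1.01 ± 0.18 SE, adjusted p = 0.0401). *Porcn* lies on chromosome X. Clone 2 and pre-iPS, the lines with most *Porcn*, had 15713 to 22992 *Xist* reads and 1 or 2 reads of the Y-linked *Ddx3y*, while control and clone 1 had 140 to 328 and 1440 to 1846. MEF, with the least *Porcn* (893 and 885), had 44538 and 50201 *Xist* reads and 302 and 367 of *Ddx3y*. The part of the sex chromosomes was not tested.

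Passage was compared within the 4 reprogrammed lines, 25 less 5, with the line as a block. Of the 41 genes 2 were called lower at passage 25 and none higher; 1.29% of all genes were lower and 0.398% higher. *Wnt7b*, a canonical ligand, was 522, 467, 248 and 149 at passage 5 in control, clone 1, clone 2 and pre-iPS, and 197, 235, 118 and 69.1 at passage 25. It was lower in 4 of 4 lines (log2 difference -1.14 ± 0.12 SE, adjusted p = 0.00414). *Lef1* was 1154, 743, 754 and 24.5 at passage 5 and 461, 259, 237 and 17.3 at passage 25, lower in 4 of 4 lines by -0.48 in pre-iPS and -1.32 to -1.66 in the iPS lines (-1.25 ± 0.20 SE, adjusted p = 0.0129). Whether pre-iPS differed from the iPS lines in this change was not tested. The *Lef1* call was lost without either clone 1 library (-1.15). Without the line as a block, neither gene was called.

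Further genes differed in the same direction in 4 of 4 lines without being called. How many of all genes do so, or separate by passage, was not counted. *Wnt6* and *Fzd9* were lower at passage 25 in this way, and *Wnt5a*, *Fzd3*, *Lrp5*, *Dkk1* and the untested *Wnt8b* higher. Those that follow had an adjusted p under 0.05 or a call by another tool. *Wnt4* was 179 to 275 at passage 5 and 105 to 161 at passage 25 (log2 difference -0.84, adjusted p = 0.0228), and the groups did not overlap. *Fzd4* differed by 0.57 (adjusted p = 0.0239) and *Sfrp2* by 0.61 (adjusted p = 0.0318), both higher at passage 25 in 4 of 4 lines. *Wnt7a* was 21.4 to 68.4 at passage 5 and 13.6 to 30.5 at passage 25 (-1.27, adjusted p = 0.0602) and was called by edgeR and DESeq2 (adjusted p = 0.0423 and 0.0284). *Axin2* differed by 0.20 with both directions among the lines. Of the 63 other pathway genes 5 had an adjusted p under 0.05, each short of the required size. Among all 17075 genes tested, 1869 had an adjusted p under 0.05, whatever the size of their difference. The pluripotency marker sum was lower at passage 25 in control (78660 to 46692) and clone 1 (49310 to 35432) and not in clone 2 or pre-iPS. The macrophage sum was lower at passage 25 in 4 of 4 lines (1027 to 431 in control, 1268 to 472 in clone 1, 1230 to 711 in clone 2 and 1657 to 893 in pre-iPS), as was the trophoblast sum (5743 to 2721, 6782 to 2853, 5122 to 4077 and 3716 to 1858). Most of the macrophage sum in these lines was *Cd68* (846 to 354, 1124 to 422, 1109 to 671 and 1565 to 853), which was 767 and 715 in MEF. *Ptprc*, *Lyz2* and *Fcgr1* stood at 10.9 or less in them. Of the trophoblast genes only *Tfap2c* was higher at passage 25 in a line, clone 2 (2800 to 3301). The part of these markers was not tested.

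**Figure D5:**
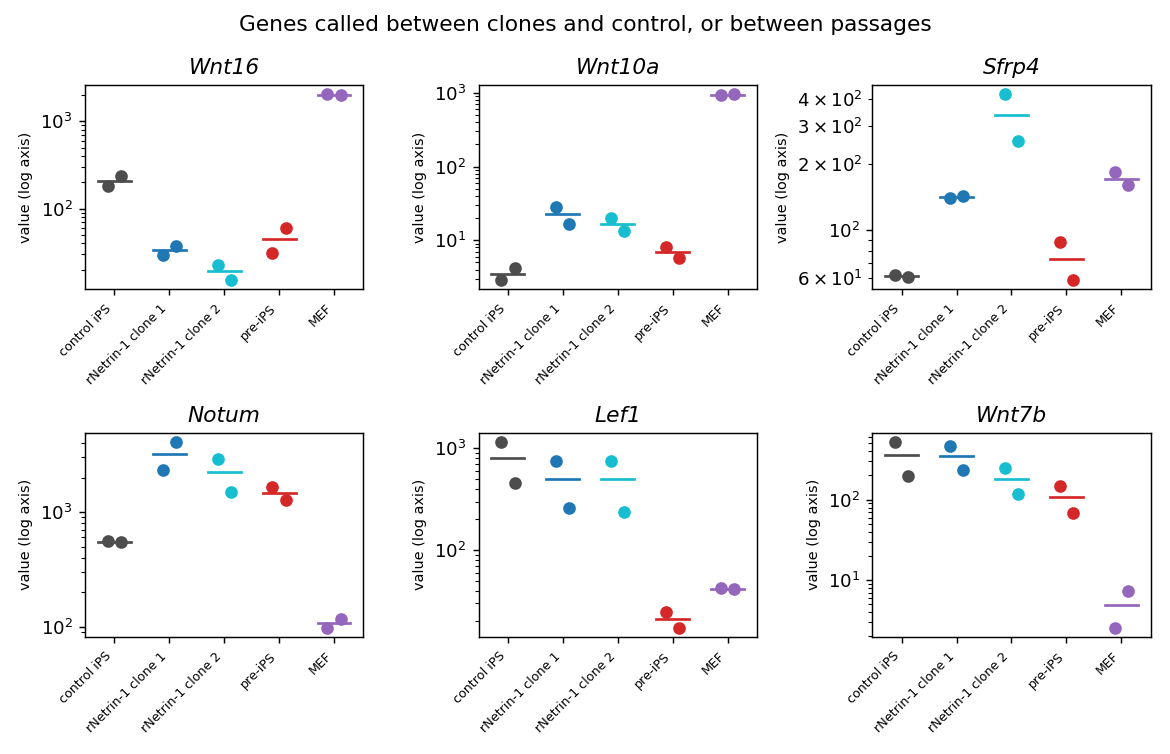
Values on log axes of genes called between the rNetrin-1-derived clones and control iPS cells (*Wnt16*, *Wnt10a*, *Sfrp4*, *Notum*) or between passages (*Lef1*, *Wnt7b*); points are libraries, earlier passage left, and short lines the means of the 2. *Wnt16* is 179 and 236 in the control line and 15.2 to 37.0 in the clones, and the left point of *Lef1* and *Wnt7b* is the higher one in all 4 reprogrammed lines.

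Some exons overlap those of other genes, and neither the library kit nor the labels separate strands. By GENCODE M21 for GRCm38 the shared part was 17.8% of the exon bases of *Fzd5*, 16.1% of *Sfrp2*, 13.8% of *Lef1*, 8.80% of *Wnt11*, 6.62% of *Wnt7b*, 3.80% of *Axin2* and at most 4.58% in the other listed genes. *Axin2* lies at chr11:108920349-108950783, *Lef1* at chr3:131110471-131224356 and *Wnt16* at chr6:22288227-22298522 in that annotation, and the reads counted cover their exons.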

How the data were processed

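Polyadenylated RNA of 10 libraries (5 lines, 2 passages each) was prepared with an unstranded kit and sequenced as 50-base single reads in 1 lane. The labels were used for lines and passages. The authors deposited 1 table of normalised signal: edgeR pseudo-counts, that is read counts adjusted to equal library sizes and so no longer whole. The submitters' processing notes name FastQC, CASAVA 1.8.2, TopHat2 2.0.8b, HTSeq 0.5.3p9, edgeR and the build mm10; the annotation and strand setting are not given in the sources used here. In the pre-iPS and iPS libraries, 99.96% to 100% of values came to whole reads within 0.1. For MEF, the recovered whole reads gave back 100% of the deposited values within 0.1. The libraries held 38110410 to 52946856 reads, and counting error weighs most in genes of few reads.

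Lines were compared on log2(value + 1) by limma 3.58.1 under R 4.3.3 (lmFit, eBayes with trend; two-sided), fitting 1 mean per line to the 10 libraries, and p-values were Benjamini-Hochberg adjusted over the 17075 genes that reached 10 in 2 or more libraries; fold changes understate those of low genes. Calls required adjusted p below 0.05 and a log2 difference of 1 or more in size. The iPS value is the mean of the 3 line means. The passage comparison used 8 libraries with line as a block. Passage numbers pair the libraries of the reprogrammed lines: deviations of same-numbered libraries from their line means correlated in all 6 pairs of lines (Pearson r 0.235 to 0.504, mean 0.353).

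The settings varied were the pseudocount (0.5, 5), the filter (none, or a mean of 50 or more), adjusted p alone, quantile normalization, scaling to *Gapdh*, *Actb*, *Hprt* and *Tbp*, only the lines compared, the replicate block, leaving out each library, and edgeR 4.0.16 (quasi-likelihood) and DESeq2 1.42.0 on the recovered reads. Levels between genes were compared per kilobase of GENCODE M21 exons. All listed genes may be named, called ones in full, with the 3 highest and 3 lowest called of 64 other pathway genes per comparison; *Sp5*, *Cd44*, *Rspo4*, *Lgr4*, *Lgr6* in MEF, *Xist* and *Ddx3y* were chosen with their values in view. The listed genes and all lists were chosen with earlier results of these data known. No value column was left unmapped (0), and no sequence of chromosome 18 genes is shown.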

Additional observations from a re-analysis of the deposited data

Results flagged for a closer look

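*Porcn*, which encodes the acyltransferase that lipidates Wnt proteins, differed between the 2 rNetrin-1-derived clones, which were made the same way. Its log2 difference, clone 2 less clone 1, was 1.01 (adjusted p = 0.0401 in limma), and the values were 6098 and 4070 against 2711 and 2262. That p rests on a spread shared by all 5 lines, of which the MEF libraries were the closest to each other. In a fit of the 2 clones alone, 6 of all genes were called in place of 165, and whether *Porcn* was among them is not given. The test of clone 2 against clone 1 is also the test of whether their differences from the shared control line differ. Of 41 listed and 63 other pathway genes tested it was the 1 called, where 0.714% of all genes were called higher and 0.252% lower in clone 2. The clones also differed in *Xist* and *Ddx3y* reads, and the part of the sex chromosomes was not tested. Each line has 2 libraries, too few to test a single library as an outlier.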

How the results depend on the processing

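Over all alternatives, 1465 values of the 77 calls were recomputed; 1408 kept direction and call, 57 lost the call and 0 reversed. The number of listed genes called was within 1.5 times the main number except as follows. With the adjusted p alone, 19 in place of 12 were called for pre-iPS against iPS cells and 5 in place of 2 for passage. Among all 17075 genes tested, 6758 in place of 2781 were called for the first and 1869 in place of 289 for the second. Between clones 2 and 1, the replicate block and DESeq2 each called 1 gene in place of 0. For passage, no replicate block left 0 of 2. In fits of only the lines compared, the calls over all genes fell from 165 to 6 for clone 2 against clone 1. They fell from 360 to 134 for clones against control. Leaving out 1 library at a time gave 1 to 3 calls for clones against control (1 without either control library, which also took the calls over all genes from 360 to 145 and 119), 0 to 1 for clone 2 against clone 1 (1 without clone 2 at passage 5), 9 to 13 for pre-iPS against iPS, 29 to 30 for MEF against iPS, 27 to 30 for MEF against pre-iPS and 1 to 3 for passage (1 without either clone 1 library). A line left with 1 library is assumed to vary like the others. The replicate block changed no other call among the listed genes than those of *Wnt7b* and *Sfrp4*. The cause of these changes was not tested. With 2 libraries a line, and 1 clone a line, small differences cannot be resolved, and in genes of few reads, such as *Wnt1*, *Wnt8b* and *Wnt9b*, depth limits what can be seen.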
